A study of Mus musculus with 9 samples.

Results

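The genes described here are the writers and erasers of N6-methyladenosine (m6A), the methyl mark on internal adenosines of mRNA. They were the 10 rows of the raw count table whose Ensembl identifiers carry the symbols Mettl3, Mettl14, Wtap, Zc3h13, Cbll1, Rbm15, Rbm15b, Mettl16, Fto and Alkbh5, out of 48526 genes in the table. The rule for choosing them uses no measured value, although the members were chosen with earlier results of these data known. Neural stem cells (NSCs) were taken from the subependymal zone (SEZ), a niche beside the lateral ventricle where neurons are still born in adult life, of adult C57BL/6 mice and were expanded in culture as neurospheres. RNA was sequenced before differentiation was induced (0 h) and 1 h or 6 h later, and cells were induced on an adhesive substrate by withdrawing EGF while FGF was kept. For cells fixed within hours of induction, the study's methods place seeding before it, in medium with both factors, and whether this held for the sequenced cultures was not stated. The 0 h group is thus the undifferentiated culture, and all 3 groups share the strain, with no genetic change or drug named in their labels. Each time point had 3 libraries numbered 1 to 3, which gives 9 libraries. What libraries of 1 number share was not stated. Because nothing says that the replicates came from separate mice, p-values measure only the spread between these samples. The study inhibited m6A methylation in other experiments with the same cells. The comparisons below ask how far the transcripts of the m6A enzymes moved over the first hours after induction. No group was a culture kept in EGF for 1 h or 6 h, so EGF withdrawal, handling and time in culture cannot be told apart.

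m6A is deposited in the nucleus by a complex built around METTL3 and METTL14, and WTAP, VIRMA, ZC3H13, CBLL1 and an RBM15 protein hold that pair together, place it in the nucleus and bring it to RNA. METTL16 is a separate enzyme that methylates the U6 small nuclear RNA and hairpins in the mRNA of Mat2a, whose product makes the methyl donor S-adenosylmethionine. FTO and ALKBH5 remove the mark, using iron and 2-oxoglutarate, and in the nervous system the balance of these enzymes is known to bear on the timing of neurogenesis.

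What sets the enzymes apart from their partners can be read in the coding sequence at the active site, and the stretch around it is shown for the 5 members that carry one or a copy of one. The bases were taken from the GENCODE M21 transcripts on GRCm38 (mm10), 5′ to 3′ on the strand of the gene, with the codons of the motif in capitals and 24 coding bases on each side.
Mettl3 (chr14:52297557-52297616, minus strand, DPPW, residues 395 to 398 of 580): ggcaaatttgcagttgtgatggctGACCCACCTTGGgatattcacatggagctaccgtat
Mettl14 (chr3:123374781-123374840, minus strand, EPPL, residues 192 to 195 of 456): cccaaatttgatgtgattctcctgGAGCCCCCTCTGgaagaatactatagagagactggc
Mettl16 (chr11:74792259-74792318, plus strand, NPPF, residues 184 to 187 of 553): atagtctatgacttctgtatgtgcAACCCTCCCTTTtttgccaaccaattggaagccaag
Fto (chr8:91409757-91409813, plus strand, HHD, residues 228 to 230 of 502): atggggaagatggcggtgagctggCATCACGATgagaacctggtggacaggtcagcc
Alkbh5 (chr11:60539011-60539067, plus strand, HVD, residues 205 to 207 of 395): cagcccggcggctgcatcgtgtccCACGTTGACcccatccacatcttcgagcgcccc
The capitals in Mettl3 encode the DPPW motif that binds S-adenosylmethionine and the target adenosine. Those in Mettl16 encode NPPF, the same kind of motif with another first residue. Mettl14 has EPPL at the matching place and is known to lack activity of its own, serving as the partner that binds RNA. The capitals in Fto and Alkbh5 encode the HxD pair of residues that hold the iron atom. Each motif lay within 1 exon.

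The libraries held 65871454 to 105592597 counts each. Levels are given as CPM, the counts relative to a TMM-scaled library size, and values of 3 libraries are listed in the order of replicates 1, 2 and 3. In total 18858 genes passed the filter on low counts, and 10 of 10 members did. Members had between 1032 counts (Cbll1) and 12005 counts (Rbm15b) in a library. Of the markers of NSCs, Nes had 1986 ± 395 CPM, Sox2 105 ± 2.30 CPM and Pax6 35.6 ± 3.69 CPM at 0 h (SD, n = 3), whereas Gfap had 1.31 ± 0.292 CPM. The summed level of 10 NSC markers lay between 7070 and 8622 CPM at 0 h, between 6844 and 9190 CPM at 1 h and between 6124 and 7813 CPM at 6 h. All 5 microglia markers stayed under 1 CPM in every library, with sums between 0.0814 and 0.526 CPM, and 3 of 4 endothelial markers did (Pecam1, Cdh5 and Cldn5), with sums over the 4 between 1.45 and 4.24 CPM. The sum of 8 oligodendrocyte lineage markers was 1696 to 2294, 1838 to 2201 and 2170 to 2517 CPM at the 3 times in order. That of 7 neuron markers was 964 to 1483, 835 to 1504 and 1002 to 1567 CPM. That of 5 astrocyte markers was 696 to 942, 718 to 1010 and 869 to 1083 CPM, and that of 3 ependyma markers 45.6 to 86.7, 50.7 to 91.6 and 37.2 to 59.1 CPM. Sox10, Mog, Stmn2 and Tmem212 were under 1 CPM in every library. Single markers moved more than these sums. At 6 h against 0 h, in the edgeR fit with a term for the replicate number, 4 of 7 neuron markers were higher and 0 lower. Their log2 fold changes (± SE) were 1.63 ± 0.108 for Syt1, 1.23 ± 0.158 for Rbfox3, 1.06 ± 0.0885 for Tubb3 and 0.50 ± 0.147 for Snap25. Of these, Rbfox3, Snap25 and Tubb3 had means of only 2.37, 1.81 and 3.76 CPM at 0 h. The others, Stmn2 (-0.77 ± 0.351), Dcx (-0.35 ± 0.240) and Map2 (-0.01 ± 0.0540), lay below 0 at 6 h and did not pass. Of the 8 oligodendrocyte lineage markers 5 were higher and 0 lower, led by Cspg4 (1.41 ± 0.0572), while both tested ependyma markers were lower and 1 of 5 astrocyte markers, Aldoc, was higher. Of the 10 NSC markers 4 were higher and 3 lower, among them Nes (-0.43 ± 0.0502). With that term 17.4% of all tested genes were higher and 17.5% lower, and without it 0 neuron, 0 astrocyte, 0 ependyma and 1 oligodendrocyte lineage markers passed. At 1 h 0 markers of the neuron, oligodendrocyte, astrocyte and ependyma lists passed in either fit. The part of these other cell types in the results below was not tested. In RNA from whole cultures, fewer cells of a type and less RNA per cell cannot be told apart.

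Against 0 h, more of the members' fold changes lay below 0 than above it (7 of 10 at 1 h and 8 of 10 at 6 h), whereas from 1 h to 6 h 6 of 10 lay above 0. At 1 h the median log2 fold change of the 10 members against 0 h was -0.08, and at 6 h it was -0.12, while over all tested genes it was 0.00 at both times. From 1 h to 6 h the median of the members was 0.04. At 1 h Mettl14, Wtap, Zc3h13, Cbll1, Rbm15, Rbm15b and Mettl16 were lower than at 0 h in 3 of 3 replicates, which was seen in 22.4% of all tested genes. Fto was higher in 3 of 3, as were 20.8% of all genes. At 6 h Mettl14, Wtap, Rbm15, Rbm15b, Mettl16 and Alkbh5 were lower in 3 of 3 replicates (31.7% of all genes), and Mettl3 and Fto were higher in 3 of 3 (31.5%). The lowest log2 fold change of a member was -0.42 (Rbm15 at 1 h) and the highest 0.24 (Cbll1 from 1 h to 6 h).

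Every tested gene was fitted with edgeR (quasi-likelihood F test) in 2 ways. The main fit had time as the only factor, and the second added a term for the replicate number. With time alone, 0 of 10 members passed an adjusted p of 0.05 in each of the 3 comparisons. The share of all tested genes that passed was 0.0424% at 1 h against 0 h, 2.42% at 6 h against 0 h and 2.14% at 6 h against 1 h. At an unadjusted p under 0.05, 3, 3 and 1 members passed in the 3 comparisons, as did 3.90%, 17.9% and 17.7% of all tested genes. DESeq2 with time alone called Mettl14, lower, at 1 h (adjusted p = 0.00982) and at 6 h (adjusted p = 0.0247), where it called 0.338% and 8.76% of the genes it tested. After the mean of each time point was subtracted, the libraries of 1 number resembled each other, so the fit with the replicate term is given beside the other. With it, 2 of 10 members were lower at 1 h and 0 were higher, against 2.14% of all tested genes lower and 1.36% higher. At 6 h against 0 h, 3 of 10 were lower and 0 higher, against 17.5% lower and 17.4% higher. Between 1 h and 6 h, 1 member was higher and 1 lower, against 18.0% and 17.5% of all genes.

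**Figure D1:**
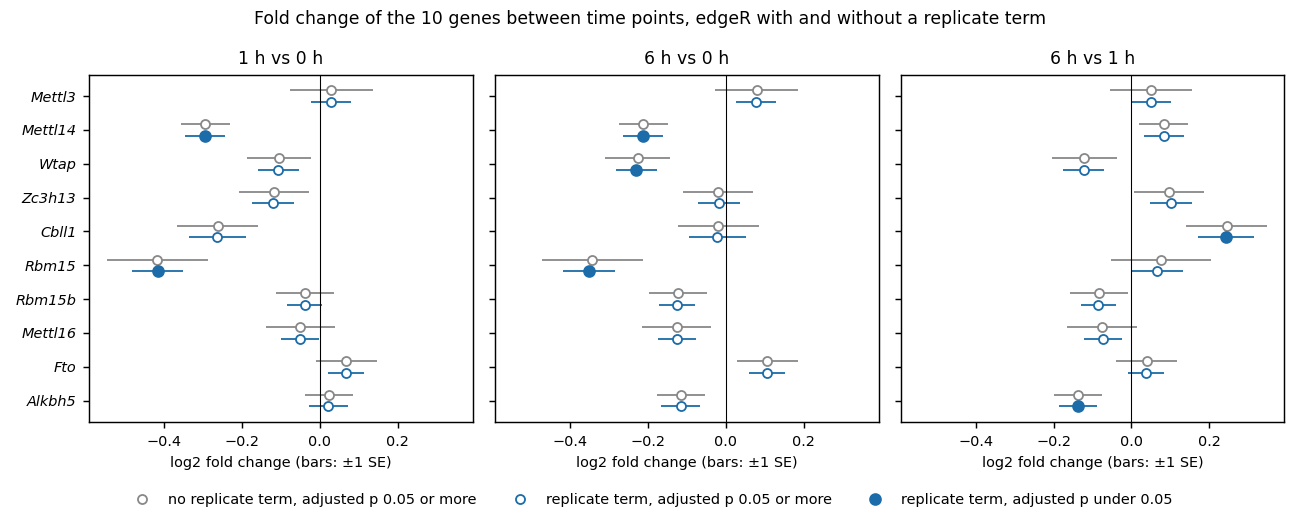
Log2 fold change of the 10 genes (rows) in the 3 comparisons (panels), with bars of 1 standard error, from the edgeR fit without a replicate term (grey) and with it (blue). Filled symbols mark an adjusted p under 0.05: Mettl14 and Rbm15 at 1 h, Mettl14, Wtap and Rbm15 at 6 h, and Cbll1 and Alkbh5 between 1 h and 6 h, all in the fit with the replicate term.

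Of the catalytic pair, Mettl14 fell in the fit with the replicate term and Mettl3 did not pass the test in any comparison. Mettl3 (chr14:52294841-52305128, minus strand, ENSMUSG00000022160), the subunit that transfers the methyl group, had 36.0, 32.1 and 37.0 CPM at 0 h. The values were 35.6, 32.3 and 39.3 CPM at 1 h and 37.4, 33.4 and 40.2 CPM at 6 h. The levels of the 3 time points overlapped, and replicate 2 was the lowest at each time. Its log2 fold change was 0.03 ± 0.0515 (SE) at 1 h and 0.08 ± 0.0512 at 6 h against 0 h (adjusted p = 0.828 and 0.266 with the replicate term, 0.9998 and 0.788 without). Its sign at 1 h turned with GC and length trends removed (-0.0077). Exons of Mettl3 overlap those of Tox4 on the other strand, which had up to 10656 counts in a library and log2 fold changes of -0.04 at 1 h and 0.02 at 6 h. Whether the counting used strand was not stated, so reads of the overlap may belong to either gene.

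Mettl14 (chr3:123368297-123386108, minus strand, ENSMUSG00000028114), the partner that binds RNA, had 43.6, 42.0 and 42.3 CPM at 0 h. The values were 33.8, 34.2 and 36.2 CPM at 1 h and 36.5, 36.4 and 37.5 CPM at 6 h. All libraries at 0 h were above all at 6 h, and those in turn were above all at 1 h. It fell by 18.5% at 1 h (log2 fold change -0.30 ± 0.0520, adjusted p = 0.00716) and fell by 13.7% at 6 h (-0.21 ± 0.0516, adjusted p = 0.00627) with the replicate term. Without the term the adjusted p was 0.436 and 0.121. From 1 h to 6 h its log2 fold change was 0.08 ± 0.0518 (adjusted p = 0.239). The calls were lost when the trends in GC content and transcript length within a library were removed (-0.20, adjusted p = 0.114 at 1 h, and -0.14, adjusted p = 0.11 at 6 h). They were also lost at 1 h without the 0 h library of replicate 1 (adjusted p = 0.0801), the 0 h library of replicate 2 (0.069) or the 1 h library of replicate 1 (0.0603). At 6 h the call was lost without the 0 h library of replicate 1 (0.0624). Leaving out a replicate number at all 3 times ended both calls for replicate 1 (adjusted p = 0.138 at 1 h and 0.108 at 6 h) and for replicate 2 (0.122 and 0.084), but not for replicate 3.

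The level of Mettl3 relative to Mettl14, both per kilobase of exon, does not depend on the scaling of the libraries. It was 1.21, 1.12 and 1.28 at 0 h, 1.54, 1.38 and 1.59 at 1 h and 1.496, 1.34 and 1.57 at 6 h. Per kilobase of the longest transcript it was 2.753, 2.546 and 2.916 at 0 h, so its size depended on the length used. Every library at 1 h and at 6 h was above every library at 0 h, while 1 h and 6 h overlapped. An exact two-sided permutation test gave p = 0.1 for 1 h and for 6 h against 0 h (adjusted p = 0.12 over 6 tests of 3 such ratios), which is the smallest p that 3 against 3 libraries allow.

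**Figure D2:**
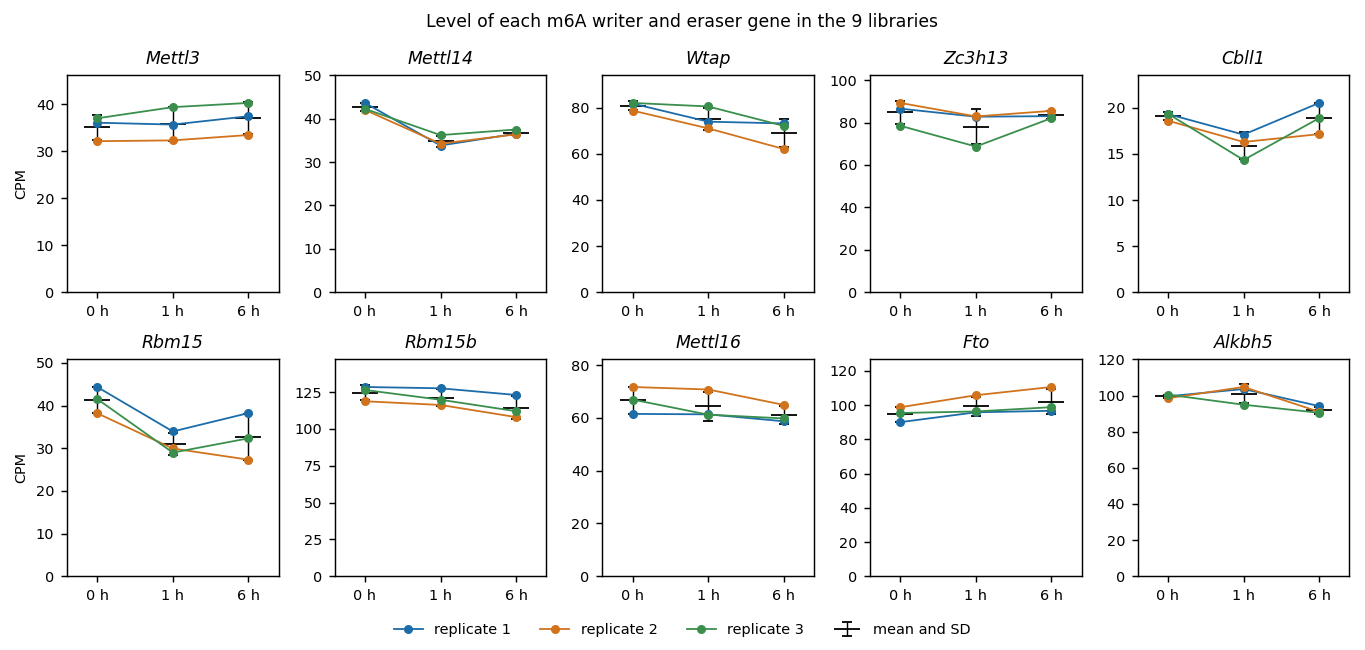
CPM (vertical axes, starting at 0) of each gene at the 3 time points, with a line for each of the 3 replicates and the mean ± SD in black. Mettl14, Cbll1 and Rbm15 lie lower at 1 h than at 0 h in every replicate, as do Wtap, Zc3h13, Rbm15b and Mettl16. The Mettl3 lines run nearly level with replicate 2 at the bottom.

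Among the subunits that hold and place the catalytic pair, Wtap fell by 6 h, Cbll1 rose from 1 h to 6 h, both with the replicate term, and Zc3h13 and Virma did not pass the test. Wtap (chr17:12966796-12994169, minus strand, ENSMUSG00000060475), which anchors the pair in nuclear speckles, had 81.8, 78.7 and 82.0 CPM at 0 h. The values were 73.9, 71.0 and 80.5 CPM at 1 h and 73.2, 62.1 and 72.1 CPM at 6 h. The 0 h and 6 h libraries did not overlap, and the lowest value was that of replicate 2 at 6 h. At 6 h Wtap fell by 14.7% (log2 fold change -0.23 ± 0.0532, adjusted p = 0.00465 with the replicate term and 0.200 without). At 1 h the log2 fold change was -0.11 ± 0.0532 (adjusted p = 0.309). The call at 6 h was lost without the 0 h library of replicate 2 (adjusted p = 0.0625) and without all libraries of replicate 2 (0.137).

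Cbll1 (chr12:31484829-31499616, minus strand, ENSMUSG00000020659), also called Hakai, a RING finger protein of the complex, had 19.3, 18.6 and 19.4 CPM at 0 h. The values were 17.1, 16.3 and 14.3 CPM at 1 h and 20.5, 17.2 and 18.9 CPM at 6 h. The 1 h libraries were below all others, and the largest dip was in replicate 3. Its log2 fold change at 1 h was -0.26 ± 0.0735 (adjusted p = 0.0729 with the replicate term). From 1 h to 6 h it rose by 18.3% (0.24 ± 0.0730, adjusted p = 0.0202, and 0.268 without the term). The rise was no longer called without the 1 h library of replicate 3 (adjusted p = 0.0834), the 6 h library of replicate 1 (0.0961) or the 6 h library of replicate 3 (0.077), nor without all libraries of replicate 1 (0.0891) or of replicate 3 (0.1). At 6 h against 0 h the log2 fold change was -0.02 ± 0.0725, and its sign turned with GC and length trends removed (0.034) and, in the fit without the term, with unscaled library totals (0.0017).

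Zc3h13 (chr14:75284373-75344426, plus strand, ENSMUSG00000022000), a zinc finger protein that helps to keep the complex in the nucleus, had 86.6, 89.3 and 78.5 CPM at 0 h. The values were 82.8, 82.9 and 68.7 CPM at 1 h and 83.0, 85.5 and 82.1 CPM at 6 h. Replicate 3 was the lowest at each time, and the time points overlapped. The log2 fold change was -0.12 ± 0.0545 at 1 h (adjusted p = 0.265) and -0.02 ± 0.0543 at 6 h (adjusted p = 0.836), both with the replicate term, and the sign at 6 h turned with unscaled library totals (0.0027). Virma, a large scaffold of the complex and not among the 10, had 129 ± 5.37, 123 ± 11.0 and 125 ± 9.33 CPM at 0 h, at 1 h and at 6 h (SD, n = 3), with adjusted p = 0.547 and 0.638 at 1 h and 6 h against 0 h.

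The RNA-binding adaptors Rbm15 and Rbm15b are paralogues that bring the complex to its targets, and Rbm15 fell at both times with the replicate term while Rbm15b did not pass the test. Rbm15 (chr3:107325421-107333673, minus strand, ENSMUSG00000048109) had 44.4, 38.2 and 41.5 CPM at 0 h. The values were 33.9, 29.9 and 29.0 CPM at 1 h and 38.2, 27.3 and 32.3 CPM at 6 h. The 1 h libraries were all below those at 0 h, whereas at 6 h replicate 1, at 38.2 CPM, reached the lowest 0 h value. Rbm15 fell by 25.1% at 1 h (log2 fold change -0.42 ± 0.0665, adjusted p = 0.00364) and fell by 21.6% at 6 h (-0.35 ± 0.0661, adjusted p = 0.0012) with the replicate term. The adjusted p without it was 0.945 and 0.211. The fall at 6 h was called in every alternative that kept the term, and the fall at 1 h in all but the fit without the 0 h library of replicate 2 (adjusted p = 0.0531).

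Rbm15b (chr9:106880918-106887428, minus strand, ENSMUSG00000074102) had 129, 119 and 126 CPM at 0 h. The values were 128, 116 and 119.8 CPM at 1 h and 123, 108 and 112 CPM at 6 h. The time points overlapped, and replicate 2 was the lowest at each. Its log2 fold change was -0.04 ± 0.0458 at 1 h (adjusted p = 0.698) and -0.12 ± 0.0458 at 6 h (adjusted p = 0.0501) with the replicate term. Its exons overlap Manf on the same strand, which had up to 9800 counts in a library and a log2 fold change of 0.37 at 6 h. They also overlap Dcaf1 on the other strand, which had up to 7021 counts and a log2 fold change of -0.13 at 6 h. The counts of Rbm15b are therefore uncertain where the genes share sequence. Per kilobase of exon the ratio of Rbm15b to Rbm15 was 3.30, 3.55 and 3.47 at 0 h, 4.29, 4.43 and 4.71 at 1 h and 3.67, 4.51 and 3.95 at 6 h. Per kilobase of the longest transcript it was 2.655, 2.851 and 2.791 at 0 h. It was higher in every library at 1 h and at 6 h than in any at 0 h (exact two-sided permutation test, p = 0.1 for both, the smallest possible, adjusted p = 0.12).

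The independent writer Mettl16 (chr11:74770830-74828525, plus strand, ENSMUSG00000010554) had 61.5, 71.7 and 67.0 CPM at 0 h. The values were 61.4, 70.8 and 61.2 CPM at 1 h and 58.7, 65.0 and 59.8 CPM at 6 h. The time points overlapped, with replicate 2 the highest at each. Its log2 fold change was -0.05 ± 0.0489 at 1 h (adjusted p = 0.634) and -0.12 ± 0.0488 at 6 h (adjusted p = 0.0646) with the replicate term. At 1 h the sign turned with GC and length trends removed (0.043). Mat2a, the known mRNA target of METTL16, fell at both times with the replicate term and at 6 h also without it. Mat2a had 449.8, 432 and 451 CPM at 0 h. The values were 368, 359 and 387 CPM at 1 h and 332, 277 and 335 CPM at 6 h. Every library was lower at 6 h than every one at 1 h, and lower at 1 h than every one at 0 h. It fell by 16.4% at 1 h (log2 fold change -0.26 ± 0.0542, adjusted p = 0.0193 with the replicate term and 0.9998 without). It fell by 29.4% at 6 h (-0.50 ± 0.0544, adjusted p = 1.88e-05 with the term and 0.0311 without).

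METTL16 recognises a 9-base sequence in hairpins after the stop codon of Mat2a. Those stretches are shown because they are where this writer and the methyl donor pathway meet. TACAGAGAA and TACAGAAAA were searched on the transcript strand in the 1494 bases after the stop codon in the GENCODE M21 transcript. The first occurred 5 times and the second 1 time, with no overlap between them. Each is printed 5′ to 3′ with 8 bases on each side and the motif in capitals, and the coordinates on GRCm38 are those of the motif.
Mat2a site 1 (chr6:72434245-72434253, minus strand): gcgtaggtTACAGAGAAgccttcaa
Mat2a site 2 (chr6:72433461-72433469, minus strand): ttgtgataTACAGAGAAgtcacagg
Mat2a site 3 (chr6:72433282-72433290, minus strand): ggtgtagcTACAGAGAAaccagctt
Mat2a site 4 (chr6:72433167-72433175, minus strand): ggcgtaagTACAGAGAAgccatcac
Mat2a site 5 (chr6:72433056-72433064, minus strand): aggtgtccTACAGAAAAaccttggg
Mat2a site 6 (chr6:72432948-72432956, minus strand): tggtgtggTACAGAGAAgccagctt
Of 6367 genes with a 3′ UTR of at least this length in the transcript with the longest coding sequence, 263 (4.13%) held at least 1 of the motifs in the same number of bases. No gene other than Mat2a held more than 2. A match is a description of the letters only, and methylation of these sites was not measured here.

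Of the erasers, the log2 fold change at 6 h was above 0 for Fto and below 0 for Alkbh5, and neither passed the test against 0 h. Fto (chr8:91313525-91668439, plus strand, ENSMUSG00000055932), a demethylase also known for acting on methylated caps, had 90.0, 98.7 and 95.4 CPM at 0 h. The values were 95.8, 106 and 96.3 CPM at 1 h and 96.7, 111 and 98.8 CPM at 6 h. Levels overlapped, and replicate 2 was the highest at each time. Its log2 fold change was 0.07 ± 0.0466 at 1 h (adjusted p = 0.478) and 0.11 ± 0.0465 at 6 h (adjusted p = 0.0973) with the replicate term.

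Alkbh5 (chr11:60536381-60558512, plus strand, ENSMUSG00000042650), the nuclear demethylase, had 99.6, 98.5 and 101 CPM at 0 h. The values were 104, 105 and 94.9 CPM at 1 h and 94.2, 91.0 and 90.5 CPM at 6 h. The 0 h libraries lay close together, the 1 h libraries spread to either side of them, and the 6 h libraries were below all others. From 1 h to 6 h it fell by 9.09% (log2 fold change -0.14 ± 0.0493, adjusted p = 0.045 with the replicate term and 0.297 without). At 6 h against 0 h the value was -0.12 ± 0.0494 (adjusted p = 0.0872). That call sat at the threshold: without any 1 of 8 of the 9 libraries the adjusted p was between 0.0538 and 0.263. Of these fits, only that without the 1 h library of replicate 3 kept the call (0.00419). Without all libraries of replicate 1, 2 or 3 the adjusted p was 0.208, 0.374 and 0.009. The ratio of Alkbh5 to Fto per kilobase of exon was 2.41, 2.17 and 2.29 at 0 h, 2.35, 2.16 and 2.15 at 1 h and 2.12, 1.79 and 1.99 at 6 h. Per kilobase of the longest transcript the ratio was 0.909, 0.820 and 0.866 at 0 h, so which gene was higher depended on the length used. It was lower in every library at 6 h than in any at 0 h (exact two-sided permutation test, p = 0.1, the smallest possible, adjusted p = 0.12). At 1 h it overlapped 0 h (exact p = 0.5).

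Levels per length placed Rbm15b and Alkbh5 at the top and Cbll1 at the bottom. At 0 h, in CPM per kilobase of all annotated exons, Rbm15b had 19.1 ± 0.786, Alkbh5 16.6 ± 0.168, Zc3h13 13.5 ± 0.893 and Wtap 12.9 ± 0.296 (SD, n = 3). Fto followed with 7.27 ± 0.337 and Mettl3 with 6.90 ± 0.508. The lowest levels were those of Mettl14 (5.75 ± 0.117), Rbm15 (5.57 ± 0.415), Mettl16 (4.83 ± 0.370) and Cbll1 (4.77 ± 0.106). Of neighbours in this order, Mettl16 and Cbll1 were closer than the SD of either gene. Zc3h13 and Wtap, Fto and Mettl3, and Mettl14 and Rbm15 were closer than the larger SD of the pair but not the smaller. The order depended on the length used: per kilobase of the longest transcript, Wtap (25.4 ± 0.579) and Fto (20.1 ± 0.932) were the highest and Mettl3 had 16.2 ± 1.20. The union of exons was 5076 bases for Mettl3 and its longest transcript 2159 bases, and Cbll1 and Mettl16 were the lowest with either length. The level of an mRNA says nothing of the amount of protein.

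**Figure D3:**
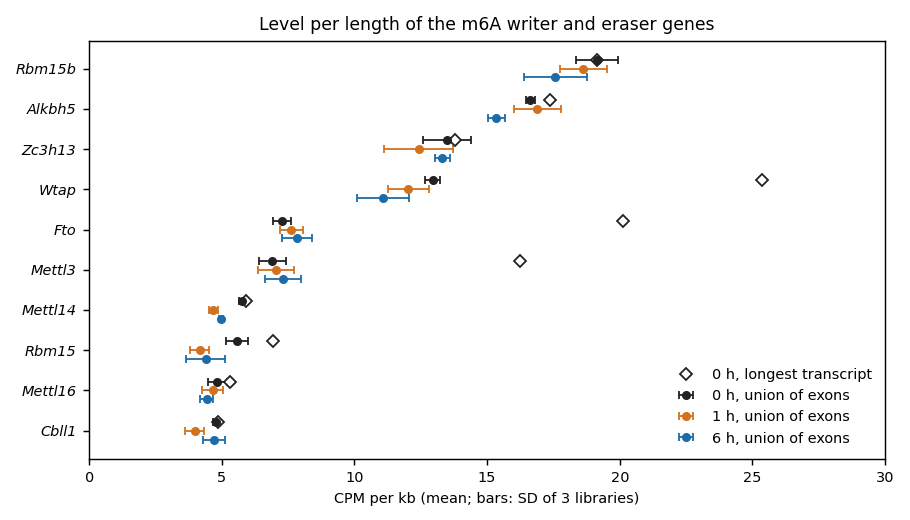
Level per kilobase of each gene, in CPM per kilobase of the union of exons, as the mean and SD of the 3 libraries at 0 h (black), 1 h (orange) and 6 h (blue), with genes ordered by their 0 h level. Open diamonds give the 0 h level per kilobase of the longest transcript, which lies far to the right for Wtap, Fto and Mettl3.

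For 5 of the 10 members the replicate number accounted for more of the spread of log2 CPM than time did, compared with 61.6% of all tested genes. For Mettl3 the replicate number held 88.5% of the sum of squares and time 8.56%, whereas for Mettl14 time held 94.3% and the replicate number 2.08%. Time also held most for Alkbh5 (69.2%), Cbll1 (65.3%), Rbm15 (64.2%) and Wtap (59.6%), and the replicate number for Mettl16 (66.5%), Fto (65.2%), Zc3h13 (53.4%) and Rbm15b (53.3%). The range of the 3 time means was 0.131 on the log2 scale in the median member and 0.278 in the median tested gene.

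Pearson's r of log2 CPM with Mettl3 was -0.0015 for Mettl14, 0.31 for Wtap, 0.16 for Rbm15b, 0.07 for Rbm15 and 0.04 for Cbll1. It was negative for Alkbh5 (-0.45), Fto (-0.50), Zc3h13 (-0.62) and Mettl16 (-0.81). The 9 points share 3 replicate numbers and are not independent, so these values are a description. Of 13605 other genes with a mean of at least 1 CPM, those most like Mettl3 were Agpat2 (r = 0.988), Mapk11 (r = 0.985), Arrdc1 (r = 0.983), Cept1 (r = 0.982) and Sdf2l1 (r = 0.981), and the nearest member, Wtap, ranked 4837.

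Of the readers of the mark, 12 of 13 were expressed enough to be tested. With the replicate term, 0 were higher and 2 lower at 1 h, against 1.36% and 2.14% of all tested genes. At 6 h 1 was higher and 6 lower, against 17.4% and 17.5%. From 1 h to 6 h 3 were higher and 2 lower, against 18.0% and 17.5%. The median log2 fold change of the readers was -0.12 at 1 h and -0.15 at 6 h. Ythdf2, which leads marked mRNAs to decay, had 82.6, 83.8 and 83.6 CPM at 0 h. The values were 61.9, 64.9 and 64.1 CPM at 1 h and 83.9, 79.5 and 80.8 CPM at 6 h. The 1 h value stood below both other times in every replicate. It fell by 23.6% at 1 h (log2 fold change -0.39 ± 0.0483, adjusted p = 0.000655 with the replicate term and 0.105 without). It rose again from 1 h to 6 h (0.36 ± 0.0482, adjusted p = 0.000111 with the term and 0.0237 without). Ythdf3 was also lower at 1 h (-0.24 ± 0.0498, adjusted p = 0.0191 with the term). At 6 h the larger changes were those of Igf2bp2 (-0.64 ± 0.0627), the RNA helicase Ythdc2 (-0.44 ± 0.0682), Prrc2a (0.23 ± 0.0569), Ythdf1 (-0.19 ± 0.0458) and Fmr1 (-0.17 ± 0.0559). None of these 5 passed without the replicate term. Between 1 h and 6 h the larger changes beside that of Ythdf2 were those of Igf2bp2 (-0.67 ± 0.0626), Prrc2a (0.27 ± 0.0569), Ythdc2 (-0.25 ± 0.0683) and Rbmx (0.23 ± 0.0496).

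In the S-adenosylmethionine cycle, which supplies the methyl group and clears the product S-adenosylhomocysteine, 8 of 9 genes were tested. With the replicate term, 0 were higher and 1 lower at 1 h, against 1.36% and 2.14% of all tested genes. At 6 h 1 was higher and 3 lower, against 17.4% and 17.5%. The medians of the log2 fold changes were -0.01 and -0.13. The largest of these changes was the fall of Mat2a given above. Ahcyl1 was higher (0.15 ± 0.0473), and Ahcyl2 (-0.21 ± 0.0555) and the adenosine kinase gene Adk (-0.14 ± 0.0490) were lower at 6 h with the replicate term only. Between 1 h and 6 h 1 gene was higher, Ahcyl1 (0.14 ± 0.0473), and 4 were lower with the term, Mat2a (-0.24 ± 0.0543), Adk (-0.23 ± 0.0489), Ahcyl2 (-0.18 ± 0.0555) and Ahcy (-0.15 ± 0.0498). Of all tested genes 18.0% were higher and 17.5% lower in that comparison. Ahcy, which hydrolyses S-adenosylhomocysteine, had 97.2 ± 17.4, 109 ± 22.3 and 97.3 ± 14.8 CPM at 0 h, at 1 h and at 6 h (SD, n = 3).

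Of 5 methyltransferases that write m6A on other RNAs or at the cap, or help to do so, 0 passed at 1 h in either fit. At 6 h the cap enzyme Pcif1 was higher (0.30 ± 0.0487, adjusted p = 0.000446) and Mettl5, which acts on 18S rRNA, was lower (-0.48 ± 0.108, adjusted p = 0.00371), both with the replicate term. In that fit 17.4% of all tested genes were higher and 17.5% lower at 6 h. The shares were 1.36% and 2.14% at 1 h, and 18.0% and 17.5% from 1 h to 6 h. Mettl5 was also lower at 6 h than at 1 h (-0.39 ± 0.108), and Mettl4 (0.25 ± 0.0907) and Pcif1 (0.23 ± 0.0486) were higher. Mettl5 had between 357 and 558 counts per library and overlaps Ssb on the other strand. Exons of Pcif1, which had 3808 to 7941 counts per library, overlap those of Zfp335 on the other strand, which had up to 3322. Of 7 other genes of the ALKBH family of dioxygenases, 0 passed at 1 h and 2 were lower at 6 h with the term (17.5% of all tested genes). These were Alkbh2 (-0.57 ± 0.138, from 1.90 ± 0.228 to 1.28 ± 0.189 CPM) and Alkbh8 (-0.19 ± 0.0632). Alkbh2 had only 98 to 149 counts per library, and its exons overlap those of Usp30 on the other strand, which had up to 3935 counts. Of 6 genes that link m6A to export, splicing and histone marks, 1 was lower at 1 h (2.14% of all tested genes), the histone methyltransferase Setd2 (-0.28 ± 0.0506). At 6 h Nxf1 was higher (0.13 ± 0.0446) while Alyref (-0.31 ± 0.0574), Srsf3 (-0.26 ± 0.0613) and Srsf10 (-0.20 ± 0.0546) were lower. Compared with 1 h, at 6 h Alyref (-0.44 ± 0.0573) and Srsf3 (-0.19 ± 0.0612) were lower, and Setd2 (0.29 ± 0.0506) and Ncbp3 (0.16 ± 0.0483) were higher, while 0 of the 7 ALKBH genes passed. These changes passed with the replicate term only.

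**Figure D4:**
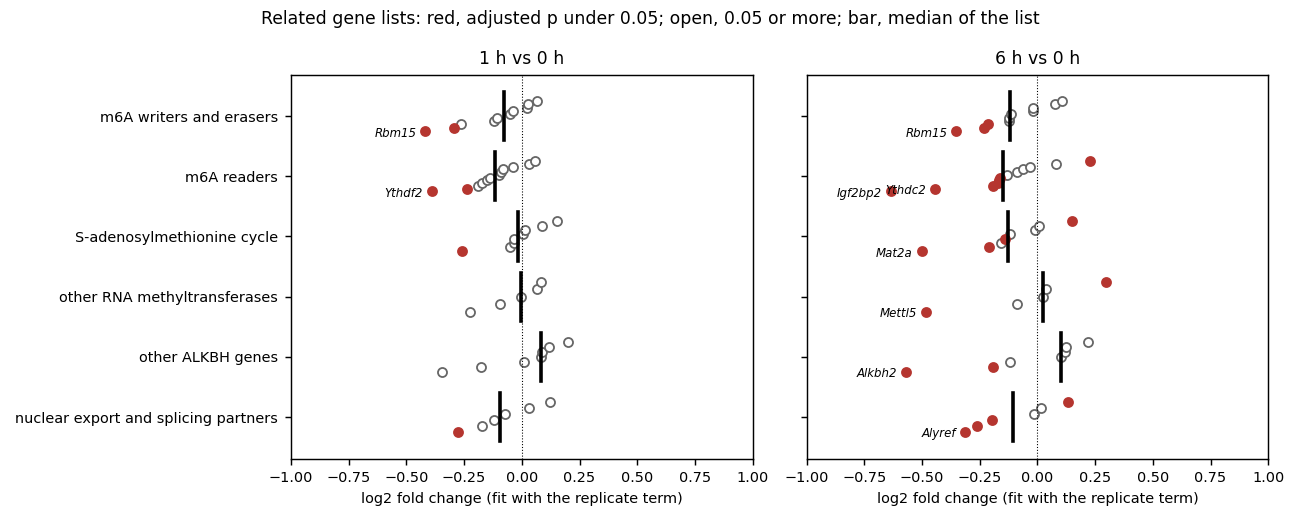
Log2 fold change at 1 h (left) and 6 h (right) against 0 h for the members and 5 related lists (rows), from the fit with the replicate term, with red for an adjusted p under 0.05 and a black bar at the median of each list. Called genes changed by more than 0.3 are named, and the medians of the members lie at -0.08 and -0.12.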

How the data were processed

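RNA-seq of 9 libraries from NSC cultures was analysed, 3 at each of 0 h, 1 h and 6 h, grouped as in the sample labels. Each of the letters B, C and D in the sample titles was given 1 replicate number. The authors deposited raw counts of reads per Ensembl gene, made from stranded paired-end mRNA libraries with STAR 2.5.3a on mm10 (GRCm38), and they tested genes with DESeq2 1.22.1. The strand setting of the counting is not given in the sources used here. Symbols, positions and lengths came from GENCODE M21, which held 48144 of the 48526 identifiers. Genes were kept by filterByExpr (minimum count 10, minimum total 15), scaled by TMM (factors 0.97 to 1.02) and fitted over the 9 libraries with edgeR 4.0.16 in R 4.3.3 (glmQLFit, glmQLFTest), and the SE was derived from the F statistic. P-values were adjusted by the Benjamini-Hochberg method across the 18858 tested genes, and 0.05 was the threshold. Log2 CPM used a prior count of 2. With time means subtracted, same-numbered libraries had correlations of 0.733 to 0.800 (9 pairs) and others -0.462 to -0.314 (18 pairs). The numbers, which follow the title letters, therefore pair the samples, and a replicate term was added as a second fit. No library was a repeat of another in its group (chi-square per degree of freedom at least 86.6). All 10 members were named, with every library's value. Of each related list, the genes past the threshold in either fit were named, up to 5 per comparison. The members and lists were chosen with earlier results of these data known. Alternatives were DESeq2 1.42.0, RLE scaling, library totals, other filters, the 6 libraries compared, GC and length trends removed, the longest transcript as length, and leaving out libraries. Figures used matplotlib 3.10.9. 1 gene of a related list is not reported here. Splicing and RNA methylation were not analysed here.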

Additional observations from a re-analysis of the deposited data

How the results depend on the processing

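With time as the only factor, 0 members were called in any comparison under RLE scaling, library totals, either other filter, the 6 libraries compared, GC and length trends removed, or without any 1 library. DESeq2 called 1 member at 1 h, 1 at 6 h and 0 from 1 h to 6 h. The replicate block, the term for the replicate number, called 2, 3 and 2 members in the 3 comparisons (3.51%, 34.9% and 35.6% of all genes). DESeq2 with the block called 3, 4 and 2 (7.16%, 33.1% and 34.8%), and the block with GC and length trends removed 1, 4 and 3 (3.73%, 37.0% and 38.8%). Starting from the fit with the block, the counts of 2, 3 and 2 became 0 without it. At 6 h against 0 h, the block fit of the 6 libraries compared called 7 members (6 lower and 1 higher) and 41.2% of all genes, and that without the 1 h library of replicate 3 called 7 and 41.7%, where the added calls were lower Rbm15b, Mettl16 and Alkbh5 and higher Fto. From 1 h to 6 h, the block fit called 1 member with library totals, 1 with the filter at a mean of 1 CPM and 0 with 6 libraries. Leaving out a library or a replicate number from the block fit gave 0 to 2 members at 1 h, 1 to 7 at 6 h and 0 to 1 from 1 h to 6 h. The 0 at 1 h came without the 0 h library of replicate 2, and the 1 at 6 h without replicate 2. The cause of these differences was not tested.

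Among the alternative fold changes of the members in the fit with time alone, 526 kept their sign and side of the threshold, 26 passed it and 18 turned sign, none of which was called. With GC and length trends removed, the log2 fold change at 1 h was -0.0069 for Mettl3 (-0.0077 with the block) and 0.046 for Mettl16 (0.043), and that at 6 h was 0.035 for Cbll1 (0.034), which was 0.0017 with library totals. Leaving out a library gave -0.042 to 0.095 for Mettl3, -0.13 to 0.0095 for Mettl16 and -0.0067 to 0.070 for Alkbh5 at 1 h. It gave -0.074 to 0.023 for Zc3h13 and -0.084 to 0.052 for Cbll1 at 6 h. From 1 h to 6 h it gave -0.013 to 0.13 for Mettl3, -0.053 to 0.19 for Rbm15, -0.12 to 0.0024 for Mettl16 and -0.018 to 0.093 for Fto. Depth did not keep any member from being tested.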

Other observations

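Among the readers, Igf2bp2, an mRNA-stabilising protein of the IGF2BP family, differed widely between replicates. It had 13.1, 13.7 and 62.7 CPM at 0 h, 13.8, 13.8 and 63.2 CPM at 1 h and 7.78, 8.92 and 42.3 CPM at 6 h in replicates 1, 2 and 3. Replicate 3 was thus the highest at every time, while the 6 h library was the lowest of each replicate. With the replicate term its log2 fold change at 6 h was -0.64 ± 0.0627 (SE, adjusted p = 8.82e-06), and without the term the adjusted p was 0.829. Its relative Igf2bp1 did not exceed 0.0440 CPM in any library.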
